A study of Homo sapiens with 36 samples.

Results

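Translation initiation factors are the proteins that bring a ribosome to the start codon of a messenger RNA, and the genes that encode them were followed across all 12 groups of the study. A gene was a member when its symbol began with EIF and a digit from 1 to 6. Left out were pseudogenes, antisense and divergent transcripts, the 4 kinases of eIF2 (EIF2AK1, EIF2AK2, EIF2AK3 and EIF2AK4), EIF2S1 and EIF4E2. Of 143 such symbols, 81 were pseudogenes by their ending, 6 were antisense or divergent transcripts and 6 were the named exceptions, so 50 of the 61544 genes in the count table were members. They comprised 5 genes of eIF1 and eIF1A, 5 of eIF2 with EIF2A and EIF2D, 5 of eIF2B, 14 of eIF3, 15 of the eIF4 factors and their binding proteins, 5 of eIF5, eIF5A and eIF5B, and EIF6. After the filter on low counts 48 were tested, and EIF1AY and EIF4E1B were not.

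The cells were MIA PaCa-2, an established human pancreatic cancer line, and the stated question was how loss of PELO or HBS1L acts where the SKI complex is destabilised. PELO and HBS1L together release ribosomes that stall on a messenger, and the SKI complex feeds messengers into decay by the RNA exosome. Each of 3 lines carried Cas9 under doxycycline (dox) control and 1 guide, directed at PELO, at HBS1L or at no target (NTC, the control line), and whether a line was a clone or a pool is not given in the sources used here. Polyadenylated RNA came from PELO guide cells with and without 2 µg/mL dox, HBS1L guide cells with and without dox, and control cells with and without dox, each at 48 h and 96 h, with 3 libraries per group and 36 in all. Every group, the untreated ones included, carried the inducible Cas9 and grew in serum free of tetracycline.

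Initiation starts when eIF2, carrying GTP and the initiator transfer RNA, joins the small ribosomal subunit together with eIF1, eIF1A, eIF3 and eIF5. The eIF4 factors bind the cap of the messenger, unwind it and load this complex, which scans to the start codon, where eIF5 triggers GTP hydrolysis by eIF2 and eIF5B then joins the large subunit. The exchange factor eIF2B recharges eIF2 and is the step that the integrated stress response slows, while the eIF4E-binding proteins hold back the cap-binding factor eIF4E under the control of mTOR.

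Library totals lay between 45356024 and 66704841 counts, apart from the second PELO library with dox at 96 h, which held 107436235 counts. HBS1L messenger fell in its own line, at 36.1, 37.2 and 35.4 CPM (counts scaled to the normalised library size) with dox and 107, 104 and 105 CPM without dox at 48 h, a log2 change beyond the control line of -1.67 ± 0.05. Without dox HBS1L messenger was already lower in that line than in control cells. The untreated group means were 105 against 123 CPM at 48 h and 111 against 143 CPM at 96 h (log2 difference at 96 h -0.37). PELO messenger did not pass the test beyond the control line at 48 h (-0.13 ± 0.08, adjusted p = 0.185) or 96 h (0.01 ± 0.08, adjusted p = 0.916), so the PELO libraries are known by their labels alone. Among epithelial markers, KRT8 had group means of 791 to 1907 CPM, while EPCAM and CDH1 were at most 0.0239 CPM, and KRT8 fell beyond the control line in PELO cells at 96 h (-1.10). In PELO cells at 48 h KRT19 had already fallen beyond the control line (-0.91), while KRT8 (-0.09) and KRT18 (0.01) did not pass. VIM, on the same marker list, had group means of 7324 to 8586 CPM. Of 9 markers of leukocytes, fibroblasts and endothelium, PTPRC, CD3E, DCN and PECAM1 were at most 0.0221 CPM in every group. The summed level of the 9, carried by CDH5, COL3A1 and CD14, was 14.3 to 17.6 CPM in PELO cells with dox against 49.4 to 58.5 CPM without dox at 48 h, and 2.60 to 3.81 CPM with dox against 33.7 to 40.8 CPM without dox at 96 h. All 4 of the 9 that could be tested fell beyond the control line in PELO cells at both times. In HBS1L cells 2 of these 4 fell at 96 h (CDH5 at -1.05 and COL3A1 at -0.38) and none passed at 48 h, and the sum was 33.1 to 35.6 CPM with dox against 38.5 to 43.9 CPM without at 48 h, and 19.7 to 23.96 CPM against 35.3 to 43.5 CPM at 96 h. The part of such genes in the results on initiation factors was not tested. The libraries of 48 h and of 96 h carry numbers from separate blocks, so time and library block cannot be told apart, and levels were compared within a time. Nothing in the sources used here says that the 3 libraries of a group were separate cultures, so p-values measure the spread between these libraries, which may be technical. In 7 of the 12 groups 1 library stood apart, in that the chi-square per gene of its counts against each of the others was more than 3 times that between the other two. At 48 h these were replicate 1 of PELO cells with dox (19.9 and 20.6, against 1.91) and replicate 3 of PELO cells without dox. At 96 h they were replicate 1 of PELO cells with dox and replicate 3 of each of PELO cells without dox, HBS1L cells with dox, control cells with dox and control cells without dox. For the response of each guide line beyond the control line at 48 h and at 96 h, counts of members without these libraries are given as well. In bulk RNA, fewer cells with a messenger and less of it per cell cannot be told apart.

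The promoters of 6 members are shown because the results turn on them: EIF5, EIF1, EIF1B, EIF5A2 and EIF6 rose in the PELO line at both times and EIF2S3 fell at both. Each is the RefSeq window of 300 bases on GRCh38.p14, with 250 bases before and 50 after the RefSeq start, read 5′ to 3′ on the gene's strand, and capitals mark the motifs found. Windows were matched by symbol for 42 of the 50 members.
EIF5 (chr14:103333987-103334286, + strand): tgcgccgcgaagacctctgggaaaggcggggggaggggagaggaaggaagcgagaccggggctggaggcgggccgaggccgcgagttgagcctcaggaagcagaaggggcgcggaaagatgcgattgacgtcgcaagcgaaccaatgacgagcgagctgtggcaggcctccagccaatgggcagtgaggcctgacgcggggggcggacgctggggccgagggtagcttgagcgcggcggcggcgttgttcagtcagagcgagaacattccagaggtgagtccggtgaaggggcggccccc
EIF1 (chr17:41688635-41688934, + strand): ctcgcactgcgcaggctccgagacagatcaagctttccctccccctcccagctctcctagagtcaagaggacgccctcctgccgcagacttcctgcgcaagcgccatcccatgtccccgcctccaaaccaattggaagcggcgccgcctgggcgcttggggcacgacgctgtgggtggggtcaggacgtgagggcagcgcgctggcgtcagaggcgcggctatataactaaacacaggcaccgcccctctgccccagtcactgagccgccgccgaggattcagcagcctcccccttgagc
EIF1B (chr3:40309457-40309756, + strand): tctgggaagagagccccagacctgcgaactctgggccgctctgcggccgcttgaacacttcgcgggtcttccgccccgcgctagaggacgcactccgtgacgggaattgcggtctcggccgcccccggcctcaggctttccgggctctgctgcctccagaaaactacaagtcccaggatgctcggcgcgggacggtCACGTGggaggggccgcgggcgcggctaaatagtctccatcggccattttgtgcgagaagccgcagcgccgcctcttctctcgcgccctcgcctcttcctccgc
EIF5A2 (chr3:170908588-170908887, - strand): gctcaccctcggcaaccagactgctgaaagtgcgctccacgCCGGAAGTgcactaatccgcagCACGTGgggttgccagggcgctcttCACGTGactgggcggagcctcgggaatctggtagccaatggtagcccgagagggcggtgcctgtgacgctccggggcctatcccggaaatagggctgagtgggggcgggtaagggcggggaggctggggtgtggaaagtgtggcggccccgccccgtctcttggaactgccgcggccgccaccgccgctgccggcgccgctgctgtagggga
EIF6 (chr20:35284668-35284967, - strand): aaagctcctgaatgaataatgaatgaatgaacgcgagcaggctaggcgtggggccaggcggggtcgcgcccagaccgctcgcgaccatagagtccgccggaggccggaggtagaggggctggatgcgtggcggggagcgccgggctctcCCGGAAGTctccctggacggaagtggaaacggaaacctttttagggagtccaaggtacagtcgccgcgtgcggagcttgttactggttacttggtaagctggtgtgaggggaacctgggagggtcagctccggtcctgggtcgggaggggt
EIF2S3 (chrX:24054706-24055005, + strand): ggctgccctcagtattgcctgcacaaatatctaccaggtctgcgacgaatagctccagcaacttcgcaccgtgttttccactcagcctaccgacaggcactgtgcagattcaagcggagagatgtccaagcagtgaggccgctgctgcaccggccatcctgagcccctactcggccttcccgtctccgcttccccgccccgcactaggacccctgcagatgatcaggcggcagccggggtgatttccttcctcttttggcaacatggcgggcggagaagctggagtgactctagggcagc
The search covered 4 motifs on both strands, with no overlap between motifs in these windows: the E-box CACGTG, the cyclic AMP response element TGACGTCA, the core of the amino acid response element TTGCATCA and the ETS site CCGGAAGT. The E-box stood in 11 of the 42 member windows (26.2%) and in 7.43% of all 27305 windows, once in EIF1B and at 2 places in EIF5A2. It also stood in EIF2B3, EIF3F, EIF3K, EIF4A3, EIF4B, EIF4E, EIF4EBP3, EIF4G1 and EIF4H. The ETS site stood in 7 member windows (16.7%) and in 4.44% of all windows, among them EIF6 and EIF5A2. Neither of the other motifs occurred in a member window, against 1.98% and 0.923% of all windows, which says only that these letters are not in these stretches. Of the 13 windows of members that rose at both times in the PELO line, 2 held the E-box and 3 the ETS site, and of the 5 windows of members that fell at both times, 1 held the E-box.

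Levels across genes were compared per length, as TPM, counts per base of exon scaled within each library, on GENCODE 29 exons. By the mean level over the 36 libraries EIF5A stood first at 1084 ± 179 TPM (SD, n = 36), followed by EIF1 at 610.0 ± 162 TPM and EIF2S3 at 608 ± 98.1 TPM, and the last 2 did not differ beyond their spread. EIF4H at 590.5 ± 45.8 TPM and EIF3I at 588 ± 34.6 TPM came next and also lay within each other's spread. EIF5 stood at 148 ± 74.9 TPM, with single libraries from 73.5 to 361 TPM. The least abundant member tested was EIF4E3 at 0.218 ± 0.153 TPM. Taking the longest transcript in place of all exons moved EIF4A1 up to rank 4, against 14, and EIF3E up to rank 7, against 21, so only coarse ranks are read from these levels.

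As a share of all counts, the 50 members took 1.48 to 1.50% of each library in PELO cells with dox at 48 h and 1.56 to 1.59% at 96 h. In the 10 other groups the share was 1.33 to 1.41%. PELO cells with dox thus lay above all others at both times, while HBS1L cells with dox, at 1.34% at 48 h and 1.35 to 1.38% at 96 h, lay within the range of the untreated and control groups.

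**Figure D1:**
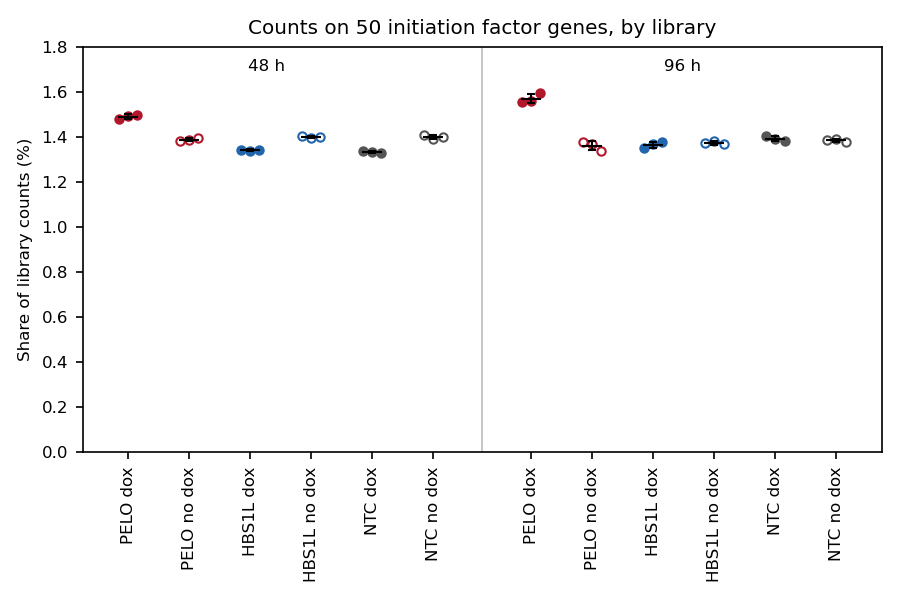
Share of library counts on the 50 initiation factor genes (percent, y axis from 0) in each of 36 libraries (points), by guide line, dox and time, with the group mean ± SD (n = 3); filled points are dox. The PELO libraries with dox lie at 1.48 to 1.50% at 48 h and 1.56 to 1.59% at 96 h, and all other libraries at 1.33 to 1.41%.

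The main comparison asked how a guide line answered dox beyond the control line, that is the log2 change from dox in the guide line minus that in the control line, tested with edgeR's quasi-likelihood test with Benjamini-Hochberg adjustment over 20767 genes at 0.05. In the PELO line 19 of the 48 members rose and 8 fell at 48 h, where 22.9% of all genes rose and 24.9% fell. At 96 h 23 members rose and 9 fell, where 28.7% of all genes rose and 26.0% fell. Without the library that stood apart, 18 rose and 7 fell at 48 h (replicate 1 with dox) or 18 rose and 6 fell (replicate 3 without dox). At 96 h the counts were 22 and 11 without replicate 1 of PELO cells with dox, 25 and 9 without replicate 3 of untreated PELO cells, 24 and 8 without replicate 3 of control cells with dox, and 21 and 11 without replicate 3 of untreated control cells. The median log2 change of the members was 0.09 at 48 h and 0.16 at 96 h, against -0.04 and 0.02 over all genes tested. In either direction 47.9% of all genes passed at 48 h and 54.8% at 96 h, so the count of members called is read against that background. The same 16 members rose at both times and the same 5 fell at both times. None moved one way at 48 h and the other at 96 h, and 10 passed at neither time. The shares of all genes called at both times were not computed, so these counts have no background to be read against. The 16 hold EIF3C with EIF3CL, and the 5 hold EIF2S3 with EIF2S3B, which are pairs of near copies. The 48 h and 96 h responses share no library, and across the 48 members they had a Pearson correlation of 0.79 and a Spearman correlation of 0.78, given as a description because genes are not replicates.

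Setting the dox libraries of PELO cells directly against those of control cells leaves out how the untreated lines differ. By this measure 26 members were higher and 7 lower at 48 h, where 27.6% of all genes were higher and 29.6% lower, and 27 were higher and 10 lower at 96 h, where 33.1% of all genes were higher and 31.1% lower. Some calls beyond the control line did not hold there, and these are given beside the gene. Others held at a value that moved by more than 1.5 times. At 48 h these were EIF4B (-0.09) and EIF5A (-0.16). At 96 h they were EIF1AX (0.22), EIF1AD (0.59), EIF3C (0.31), EIF3CL (0.30), EIF3F (-0.11), EIF4B (-0.23), EIF4E (0.25), EIF4EBP2 (-0.34), EIF4EBP3 (-0.54) and EIF4ENIF1 (0.23). Members that passed only between the dox libraries at 48 h were EIF2A (0.11), EIF4A1 (0.11), EIF4A2 (0.33), EIF4A3 (0.14), EIF4E (0.12), EIF4G1 (0.22) and EIF5B (0.24). At 96 h they were EIF2A (0.29), EIF2B1 (-0.23), EIF2B2 (0.24), EIF2S2 (0.25), EIF3H (0.18), EIF3I (0.22), EIF4EBP1 (0.47), EIF4G3 (-0.20), EIF5A (-0.32) and EIF5AL1 (-0.29).

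**Figure D2:**
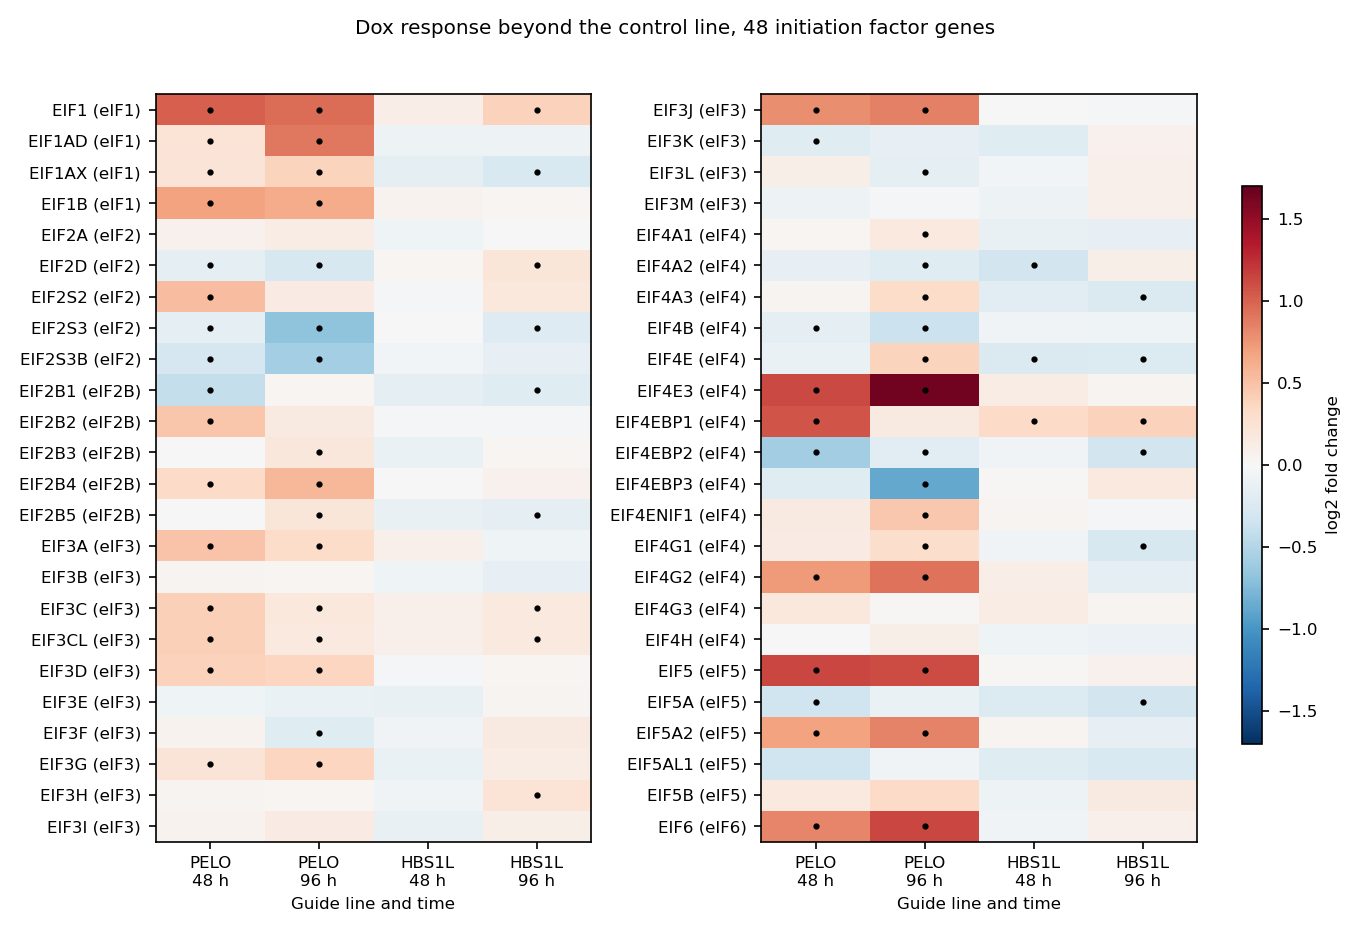
Log2 dox response beyond the control line (colour) of the 48 tested initiation factor genes (rows, with their complex) in the PELO and HBS1L lines at 48 h and 96 h (columns); a black dot marks an adjusted p under 0.05. EIF5, EIF1, EIF6, EIF4G2 and EIF3J are red with a dot in both PELO columns, and EIF2S3 is blue with a dot in both.

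The 4 tested genes of eIF1 and eIF1A all rose in the PELO line at both times. Over all genes 22.9% rose at 48 h and 28.7% at 96 h. EIF1 (ENSG00000173812.11, chromosome 17, 41688885 to 41692668, + strand), whose promoter is given above, encodes the factor that guards the choice of start codon. EIF1 held 943, 1006 and 1001 CPM in PELO cells with dox and 727, 742 and 817 CPM without dox at 48 h, and 1269, 1180.4 and 1237 CPM with dox and 644, 620.2 and 623 CPM without dox at 96 h. In the control line it held 514, 529 and 550.0 CPM with dox and 857, 819 and 817 CPM without dox at 48 h, and 539.5, 539.6 and 565 CPM with dox and 522, 539.9 and 557 CPM without dox at 96 h. The PELO libraries with dox lay above those without at both times, whereas the control libraries with dox lay below their untreated ones at 48 h and overlapped them at 96 h. The log2 change beyond the control line was 1.01 ± 0.06 at 48 h, where the adjusted p was 1.06e-16, and 0.94 ± 0.06 at 96 h, where it was 4.57e-16. At 48 h it combined a rise within the PELO line of 0.37 ± 0.04 with a fall within the control line of -0.65 ± 0.04.

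EIF1B, a near copy of EIF1 encoded on chromosome 3, rose at both times. PELO cells with dox held 33.9, 36.8 and 36.4 CPM against 24.8, 23.2 and 24.8 CPM without dox at 48 h, and 41.1, 42.0 and 39.3 CPM against 24.2, 25.4 and 23.9 CPM at 96 h. Its libraries with dox lay above those without at both times, with log2 changes beyond the control line of 0.68 ± 0.06 and 0.63 ± 0.06. EIF1AX, the eIF1A that opens the small subunit for scanning, rose less, by 0.22 at 48 h and 0.38 at 96 h on the log2 scale. EIF1AD, a protein with an eIF1A-like domain, rose by 0.23 at 48 h and 0.89 at 96 h, and the difference between the times passed the test (0.66 ± 0.12, adjusted p = 1.28e-04). At 96 h it held 38.9, 38.7 and 42.3 CPM in PELO cells with dox and 21.5, 21.5 and 22.2 CPM without. The 48 h call of EIF1AD was lost without any one of 4 of the 12 libraries, with 0.23 becoming 0.16 without the first PELO library with dox, 0.20 without the third untreated PELO library or the first control library with dox, and 0.21 without the second untreated control library.

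Members of eIF2, which carries the initiator transfer RNA, moved apart. EIF2S3 (ENSG00000130741.11, chromosome X, 24054716 to 24077971, + strand) encodes the gamma subunit that binds GTP. EIF2S3 held 606, 642 and 634 CPM in PELO cells with dox and 819.7, 834 and 841 CPM without dox at 48 h, and 455, 475 and 463 CPM with dox and 696, 697 and 724 CPM without dox at 96 h. Control cells held 689, 686 and 678 CPM with dox and 838, 770.5 and 816 CPM without dox at 48 h, and 699, 718 and 696 CPM with dox and 639, 658 and 701 CPM without dox at 96 h. PELO cells with dox were the lowest of their time, and at 48 h the control libraries with dox also lay below their untreated ones. Beyond the control line the log2 change was -0.17 ± 0.05 at 48 h, where the adjusted p was 0.00863, and -0.68 ± 0.05 at 96 h, where it was 1.08e-13, and it was larger at 96 h (difference -0.52 ± 0.07, adjusted p = 2.56e-06).

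EIF2S2, the beta subunit of eIF2, rose in the PELO line at 48 h by 0.53 ± 0.08 and had 0.14 at 96 h, which did not pass. Within the PELO line at 48 h its libraries with dox (310.4, 376 and 368 CPM) overlapped those without (321, 325 and 374 CPM), and the control line fell by 0.48 on the log2 scale with dox. EIF2D, which can deliver transfer RNA to ribosomes without eIF2, fell at both times (-0.17 and -0.27), but its 96 h value was -0.09 and did not pass between the dox libraries alone. EIF2A, another factor reported to carry initiator transfer RNA and distinct from the alpha subunit of eIF2, had 0.08 and 0.13 and passed at neither time. EIF2S3B, a near copy of EIF2S3, fell as well (-0.29 and -0.57), with group means of 8.07 to 15.2 CPM, and reads of such copies cannot be told apart with certainty. Its 48 h call was lost without any one of 6 of the 12 libraries, at values of -0.29 to -0.24: the first and second untreated control libraries, replicates 1 and 3 of the control cells with dox, and the first and second untreated PELO libraries.

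The subunits of eIF2B, the exchange factor of eIF2, did not move together. EIF2B4, the delta subunit, rose at both times, with 52.4, 53.1 and 52.1 CPM in PELO cells with dox against 42.4, 41.0 and 43.5 CPM without at 48 h and 73.1, 69.1 and 69.3 CPM against 46.2, 48.1 and 46.7 CPM at 96 h. These groups did not overlap, and log2 changes beyond the control line of 0.33 ± 0.06 and 0.56 ± 0.06 were measured. EIF2B2, the beta subunit, rose at 48 h by 0.47 and had 0.15 at 96 h. EIF2B1, the alpha subunit, fell at 48 h, with 24.3, 27.6 and 25.4 CPM in PELO cells with dox against 31.6, 32.4 and 33.6 CPM without and a log2 change of -0.40 ± 0.06. At 96 h EIF2B1 had 0.03 beyond the control line, and the libraries with dox alone, PELO against control, differed by -0.23. EIF2B3 and EIF2B5, the gamma and epsilon subunits that make the catalytic part, had 0.01 and 0.01 at 48 h and rose by 0.19 and 0.21 at 96 h. For EIF2B5 the 96 h value was 0.05 and did not pass between the dox libraries alone.

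**Figure D3:**
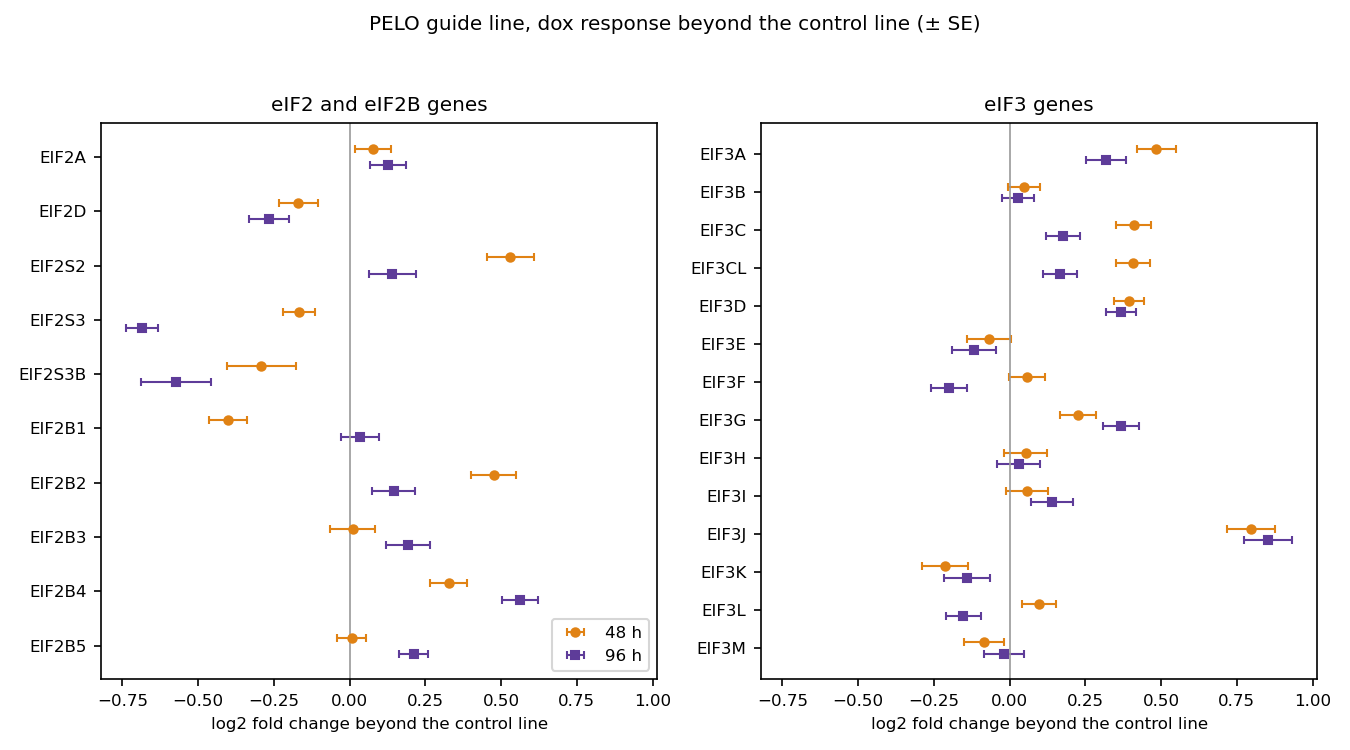
Log2 dox response of the PELO line beyond the control line (x axis, ± SE) for the genes of eIF2 and eIF2B (left) and of eIF3 (right) at 48 h (circles) and 96 h (squares). EIF3J lies near 0.80 at 48 h and 0.85 at 96 h, apart from the other eIF3 genes, and EIF2S3 lies at -0.17 and -0.68.

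Among the 14 genes of eIF3, the largest factor and the platform on which the others assemble, 6 rose and 1 fell at 48 h, and 6 rose and 2 fell at 96 h. The 7 called at 48 h and the 8 at 96 h are near the 47.9% and 54.8% of all genes that passed in either direction, of which 22.9% rose at 48 h and 28.7% at 96 h. The rises were led by EIF3J (ENSG00000104131.13, chromosome 15, 44537057 to 44563029, + strand), a loosely bound subunit that sits in the decoding site. EIF3J held 161, 188 and 192 CPM in PELO cells with dox and 129, 133 and 146 CPM without dox at 48 h, and 229, 215 and 223 CPM with dox and 119.7, 122 and 114 CPM without dox at 96 h. Its control libraries held 107, 109 and 111 CPM with dox and 155, 132 and 141 CPM without dox at 48 h, and 147, 141 and 145 CPM with dox and 134, 140.5 and 143 CPM without dox at 96 h. The PELO libraries with dox were the highest of their line at both times, while control cells with dox were lower than untreated ones at 48 h. The log2 change beyond the control line was 0.80 ± 0.08 at 48 h, where the adjusted p was 1.20e-10, and 0.85 ± 0.08 at 96 h, where it was 1.01e-11. Relative to EIF3B, a core subunit, the count of EIF3J was 0.346 ± 0.0360 in PELO cells with dox and 0.263 ± 0.0105 without dox at 48 h, and 0.386 ± 0.00873 with dox and 0.219 ± 0.0152 without dox at 96 h (SD, n = 3).

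EIF3A, the scaffold subunit, rose by 0.48 at 48 h and 0.32 at 96 h. EIF3D, the subunit that can itself bind the cap, rose by 0.39 and 0.37, and held 424, 401 and 411 CPM in PELO cells with dox against 305, 299.7 and 318 CPM without at 96 h. EIF3G, which touches the messenger near the entry of its channel, rose by 0.23 and 0.37. EIF3C and its near copy EIF3CL rose by 0.41 and 0.41 at 48 h and by 0.18 and 0.17 at 96 h. In control cells at 48 h EIF3A (-0.28), EIF3D (-0.23), EIF3C (-0.18) and EIF3CL (-0.18) fell with dox and EIF3K rose (0.24). These control changes enter the 48 h values beyond the control line. EIF3K fell at 48 h (-0.21) and EIF3F and EIF3L fell at 96 h (-0.20 and -0.15). Between the dox libraries alone EIF3K at 48 h (-0.10) and EIF3L at 96 h (-0.06) did not pass. EIF3B, EIF3E, EIF3H, EIF3I and EIF3M passed at neither time, with values between -0.12 (EIF3E at 96 h) and 0.14 (EIF3I at 96 h). Over the 12 groups EIF3L had the narrowest range of all 48 members, with group means of 183 to 204 CPM.

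In the eIF4 group the scaffold relative EIF4G2 rose, while the other members moved in both directions. EIF4G2 (ENSG00000110321.19, chromosome 11, 10797050 to 10809110, - strand), also called DAP5, resembles EIF4G1 but lacks its site for eIF4E. EIF4G2 held 1003, 986 and 981 CPM in PELO cells with dox and 722, 758 and 726 CPM without dox at 48 h, and 1506, 1473 and 1516 CPM with dox and 756, 730.2 and 721 CPM without dox at 96 h. In HBS1L cells it held 625, 611 and 640.0 CPM with dox and 727, 708 and 683 CPM without dox at 48 h, and 743, 768 and 835 CPM with dox and 807, 849 and 794 CPM without dox at 96 h. Control cells held 660.5, 648 and 638 CPM with dox and 782, 799 and 801 CPM without dox at 48 h, and 934, 877 and 928 CPM with dox and 858, 815 and 875 CPM without dox at 96 h. The PELO libraries with dox were the highest of all at their time, and at 48 h EIF4G2 fell with dox in the other lines (-0.18 in HBS1L cells and -0.29 in control cells). Beyond the control line it rose by 0.72 ± 0.06 at 48 h, where the adjusted p was 3.90e-13, and 0.92 ± 0.06 at 96 h, where it was 2.73e-16. Its ratio to EIF4G1, the scaffold of the cap-binding complex, was 0.962 ± 0.0677 with dox and 0.826 ± 0.0344 without dox in PELO cells at 48 h, and 1.37 ± 0.0703 with dox and 0.842 ± 0.0158 without dox at 96 h. EIF4G1 itself had 0.14 at 48 h and rose by 0.30 at 96 h, where the dox libraries alone gave -0.02, which did not pass. EIF4G3 passed at neither time.

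EIF4EBP1 (ENSG00000187840.5, chromosome 8, 38030341 to 38060365, + strand) encodes an inhibitor of eIF4E. EIF4EBP1 held 105, 107 and 106 CPM in PELO cells with dox and 104, 102 and 116 CPM without dox at 48 h, and 116, 103 and 103 CPM with dox and 86.9, 87.5 and 96.9 CPM without dox at 96 h. HBS1L cells held 74.1, 75.3 and 75.9 CPM with dox and 124, 128 and 129.7 CPM without dox at 48 h, and 93.5, 94.95 and 102 CPM with dox and 67.3, 72.2 and 68.5 CPM without dox at 96 h. Control cells held 62.4, 62.3 and 66.1 CPM with dox and 139.8, 136 and 131 CPM without dox at 48 h, and 73.9, 76.0 and 82.3 CPM with dox and 72.6, 71.2 and 73.9 CPM without dox at 96 h. At 48 h the PELO libraries with dox and without overlapped, and those of HBS1L and control cells with dox lay below their untreated ones. The log2 change beyond the control line at 48 h, 1.07 ± 0.07, adjusted p = 6.32e-15, thus paired a change within the PELO line of -0.02 that did not pass with a fall within the control line of -1.09 ± 0.05. At 96 h the PELO value was 0.15 ± 0.07, adjusted p = 0.0734, which passed without the third untreated PELO library (0.18) and differed by 0.47 between the dox libraries alone. The times differed by -0.92 ± 0.10, adjusted p = 2.14e-08.

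EIF4EBP2 and EIF4EBP3, the other eIF4E-binding proteins, fell in the PELO line. EIF4EBP2 had a log2 change of -0.59 at 48 h, with 102 to 112 CPM in PELO cells with dox against 120.3 to 131 CPM without and 144 to 157 CPM in control cells with dox against 117 to 124 CPM without. At 96 h its log2 change was -0.17. EIF4EBP3 had -0.21 at 48 h and fell at 96 h (log2 change -0.86 ± 0.11), with 3.32, 3.22 and 3.24 CPM in PELO cells with dox and 5.41, 5.84 and 5.96 CPM without. Its exons share 73.4% of their length with the readthrough gene ANKHD1-EIF4EBP3, so this value may hold reads of that gene. The 48 h value of EIF4EBP3 passed without the second untreated PELO library (-0.30). EIF4ENIF1, which carries eIF4E into the nucleus, had 0.15 at 48 h and rose by 0.46 at 96 h. EIF4E, the cap-binding protein itself, had -0.11 at 48 h and rose by 0.38 at 96 h, with 89.2, 87.0 and 93.7 CPM in PELO cells with dox and 65.1, 63.2 and 64.9 CPM without, groups that did not overlap. EIF4E3, a cap-binding relative, rose by 1.12 ± 0.34 and 1.63 ± 0.30 from a low level, at 2.38, 2.49 and 2.88 CPM in PELO cells with dox against 0.697, 0.465 and 0.616 CPM without at 96 h.

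The helicase EIF4A2 (ENSG00000156976.17, chromosome 3, 186783205 to 186789900, + strand) unwinds messengers alongside EIF4A1. EIF4A2 held 827, 904 and 911 CPM in PELO cells with dox and 753, 765 and 786 CPM without dox at 48 h, and 715, 713 and 742 CPM with dox and 789.7, 756 and 756 CPM without dox at 96 h. HBS1L cells held 769, 758 and 744 CPM with dox and 763, 726 and 749.8 CPM without dox at 48 h, and 714, 723 and 676 CPM with dox and 606, 587 and 625 CPM without dox at 96 h. Control cells held 687, 715 and 695 CPM with dox and 567, 529 and 565 CPM without dox at 48 h, and 576, 629.6 and 625 CPM with dox and 543, 573 and 567 CPM without dox at 96 h. Untreated PELO libraries lay above the untreated control libraries, with log2 differences of 0.47 ± 0.04 at 48 h and 0.45 ± 0.04 at 96 h. As a response beyond the control line EIF4A2 had -0.14 ± 0.06, adjusted p = 0.0535 at 48 h and fell at 96 h, with -0.21 ± 0.06, adjusted p = 0.00332. Between the dox libraries alone PELO cells were higher than control cells, by 0.33 at 48 h and 0.25 at 96 h, so the direction turned with the untreated libraries taken into account. At 48 h the value passed without any one of 6 of the 12 libraries, at -0.17 or -0.16: replicates 1 and 3 of untreated control cells, replicate 1 of control cells with dox, replicate 1 of untreated PELO cells, and replicates 2 and 3 of PELO cells with dox.

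The other eIF4 genes gave smaller values. EIF4A1, the main helicase, had 0.03 at 48 h and rose by 0.16 at 96 h, and EIF4A3, the relative that marks exon junctions, had 0.05 and rose by 0.31. Between the dox libraries alone the 96 h value of EIF4A3 was 0.03 and did not pass. Of the helpers of the helicase, EIF4B fell at both times (-0.15 and -0.36), and EIF4H passed at neither time with group means of 569 to 690.3 CPM.

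**Figure D4:**
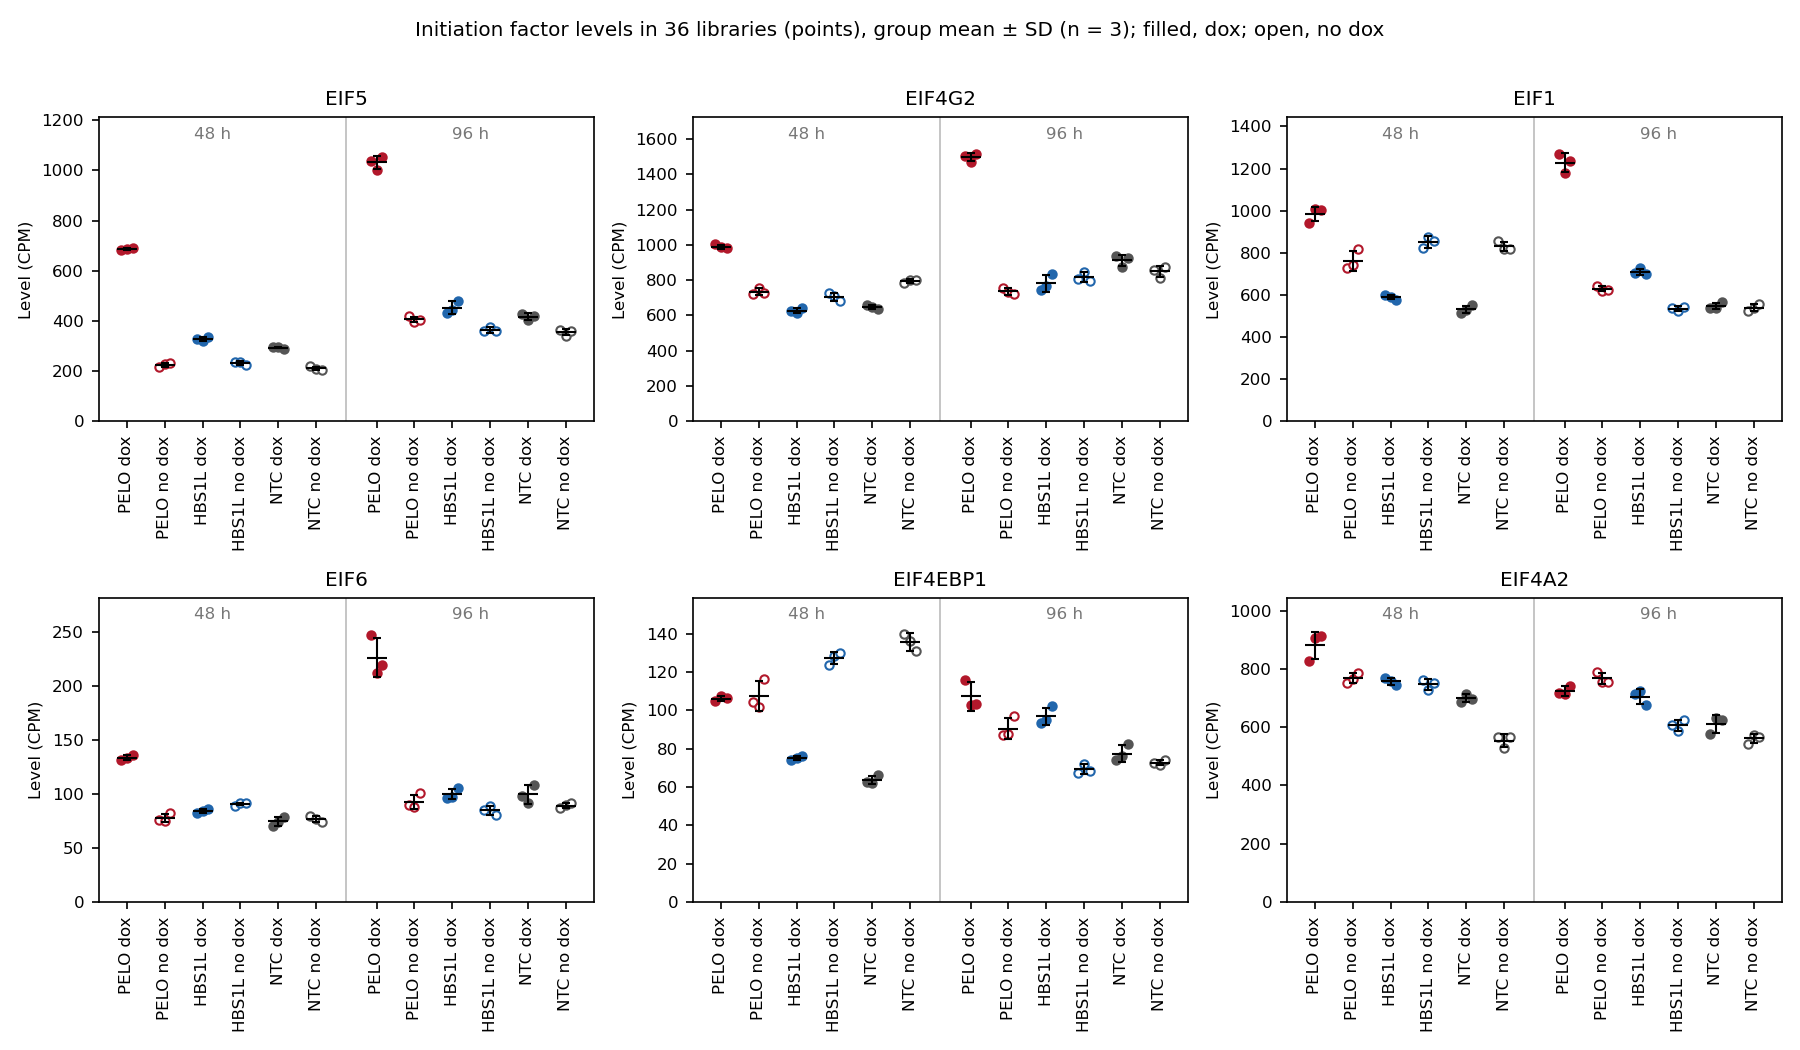
Levels (CPM, y axes from 0) of EIF5, EIF4G2, EIF1, EIF6, EIF4EBP1 and EIF4A2 in the 36 libraries (points), by guide line, dox and time, with the group mean ± SD (n = 3); filled points are dox. EIF5 reaches 683 to 691 CPM in PELO cells with dox at 48 h and 1002 to 1054 CPM at 96 h, above every other library of its time.

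EIF5 had the lowest adjusted p of all members in the PELO line. EIF5 (ENSG00000100664.11, chromosome 14, 103333544 to 103345025, + strand) encodes the factor that makes eIF2 hydrolyse its GTP at the start codon. EIF5 held 683, 687 and 691 CPM in PELO cells with dox and 215, 227 and 231 CPM without dox at 48 h, and 1039, 1002 and 1054 CPM with dox and 418, 396 and 404 CPM without dox at 96 h. HBS1L cells held 328, 320.4 and 337 CPM with dox and 236, 237 and 225 CPM without dox at 48 h, and 432, 443 and 481 CPM with dox and 358, 376 and 358 CPM without dox at 96 h. Control cells held 296, 296 and 289 CPM with dox and 219, 207 and 205 CPM without dox at 48 h, and 429, 402 and 419 CPM with dox and 363, 341 and 359 CPM without dox at 96 h. The libraries with dox lay above the untreated ones in all 3 lines at both times, and those of the PELO line lay highest. In the control line EIF5 rose with dox by 0.48 ± 0.04 at 48 h and 0.23 ± 0.04 at 96 h. Beyond this the PELO line rose by 1.13 ± 0.06 at 48 h, where the adjusted p was 2.34e-18, and 1.11 ± 0.06 at 96 h, where it was 2.33e-18, and the HBS1L line had 0.02 and 0.08, which did not pass.

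EIF5A2, a relative of EIF5A with a restricted tissue range, rose by 0.69 ± 0.09 and 0.85 ± 0.09, with 44.5, 46.7 and 47.5 CPM in PELO cells with dox and 21.9, 22.97 and 23.2 CPM without at 96 h. EIF5A, the hypusine-bearing factor that helps ribosomes past difficult stretches, fell beyond the control line at 48 h (-0.34). That value came with a rise in control cells with dox (0.31). In PELO cells the group means were 817 CPM with dox and 837 CPM without, and the change within that line did not pass. At 96 h EIF5A had -0.11, which passed without the second control library with dox (-0.19) and between the dox libraries alone (-0.32). The count of EIF5A2 relative to EIF5A in PELO cells was 0.0389 ± 0.00193 with dox and 0.0262 ± 0.00137 without dox at 48 h, and 0.0431 ± 0.00398 with dox and 0.0218 ± 0.00134 without dox at 96 h. EIF5B, which joins the large subunit, had 0.17 and 0.32, neither past the test, and EIF5AL1, a near copy of EIF5A, had -0.34 and -0.07.

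EIF6 (ENSG00000242372.9, chromosome 20, 35278911 to 35284985, - strand) encodes a factor that matures the large subunit and keeps it from joining the small one. EIF6 held 132, 134 and 136 CPM in PELO cells with dox and 76.0, 74.8 and 82.1 CPM without dox at 48 h, and 247, 212 and 219.7 CPM with dox and 89.5, 88.2 and 101 CPM without dox at 96 h. Control cells held 70.8, 74.0 and 79.0 CPM with dox and 79.7, 77.1 and 74.0 CPM without dox at 48 h, and 98.6, 91.8 and 108 CPM with dox and 87.4, 89.5 and 91.3 CPM without dox at 96 h. PELO cells with dox stood apart from every other library at both times, and the control groups overlapped at 48 h. The log2 change beyond the control line was 0.83 ± 0.08 at 48 h, where the adjusted p was 9.92e-11, and 1.13 ± 0.08 at 96 h, where it was 1.39e-14, and the difference between the times did not pass (0.30 ± 0.11, adjusted p = 0.0573).

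Between the times, the PELO response beyond the control line was higher at 96 h than at 48 h for 7 members and lower for 10, where 10.5% of all genes were higher and 9.98% lower. Higher were EIF1AD (0.66), EIF4E (0.49), EIF2B1 (0.44), EIF4EBP2 (0.41), EIF4ENIF1 (0.31), EIF2B4 (0.24) and EIF2B5 (0.21). Lower were EIF4EBP1 (-0.92), EIF4EBP3 (-0.66), EIF2S3 (-0.52), EIF2S2 (-0.39), EIF2B2 (-0.33), EIF3F, EIF3L, EIF3C, EIF3CL and EIF4B (-0.26 to -0.21). The count of 7 fell to 4 without any one of 13 of the 24 libraries in this comparison, and also with median-of-ratios scaling or when only these groups were fitted. For EIF2B4 the difference was lost without any one of 22 of the 24 libraries, and for EIF2B5 without any one of 16. In the HBS1L line 1 member was higher at 96 h, EIF4A2 (0.41 ± 0.08, adjusted p = 0.00590), and 1 lower, EIF4G2 (-0.28 ± 0.08, adjusted p = 0.0448), where 1.83% of all genes were higher and 1.23% lower (3.07% together). The difference of EIF4G2 was lost without any one of 17 of the 24 libraries, and 2 members were lower without the third untreated control library of 96 h.

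In the HBS1L line 3 members passed at 48 h and 15 at 96 h, where 3.85% and 10.7% of all genes passed in either direction. At 48 h 1 of 48 rose and 2 fell beyond the control line, where 1.41% of all genes rose and 2.44% fell. Before adjustment 10 members had a p under 0.05, a threshold at which the share of all genes was not computed. EIF4EBP1 had 0.33 ± 0.07 (adjusted p = 0.00469), while EIF4A2 (-0.32 ± 0.06, adjusted p = 0.00108) and EIF4E (-0.25 ± 0.07, adjusted p = 0.0485) fell. With dox EIF4EBP1 fell within the HBS1L line (-0.76) and fell further in the control line (-1.09). Leaving out any 1 of 11 of the 12 libraries left a single fall, the exception being the first untreated control library. EIF4A2 held 769, 758 and 744 CPM in HBS1L cells with dox and 763, 726 and 749.8 CPM without at 48 h, and EIF4E 58.6, 57.9 and 58.6 CPM with dox and 56.1, 53.4 and 52.7 CPM without. Those of EIF4A2 overlapped and those of EIF4E with dox lay above the untreated ones, with log2 changes within the line of 0.02 and 0.11 that did not pass. Between the dox libraries alone, HBS1L against control cells, the value of EIF4A2 turned to 0.12 and that of EIF4E was 0.03, which did not pass. By that measure 13 members were higher and 3 lower at 48 h, where 9.47% of all genes were higher and 13.6% lower. At 96 h 6 members rose and 9 fell, where 5.41% of all genes rose and 5.32% fell. The rises were EIF1 (0.39 ± 0.06), EIF4EBP1 (0.39 ± 0.07), EIF3H (0.24), EIF2D (0.21), EIF3C and EIF3CL (0.17 and 0.17). The falls were EIF4EBP2 (-0.31), EIF5A (-0.31), EIF4G1 (-0.27), EIF1AX (-0.26), EIF4A3 (-0.25), EIF4E (-0.23), EIF2S3 (-0.22), EIF2B1 (-0.20) and EIF2B5 (-0.16). EIF1 held 704, 726 and 700.4 CPM in HBS1L cells with dox and 536, 521 and 544 CPM without at 96 h, groups that did not overlap.

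Single libraries moved these 96 h counts in the HBS1L line. Of the libraries that stood apart, leaving out replicate 3 of HBS1L cells with dox gave 4 rises and 9 falls, replicate 3 of control cells with dox 6 and 4, and replicate 3 of untreated control cells 3 and 8. The 6 rises became 3 without replicate 1 or 3 of untreated control cells or the first control library with dox, and 2 without the second untreated control library, the second control library with dox, the third untreated HBS1L library, or the first or second HBS1L library with dox. The 9 falls became 5 without the second untreated control library or the first control library with dox, 4 without the third control library with dox or the first HBS1L library with dox, and 2 without the second untreated HBS1L library. EIF3H lost its call without any one of 6 libraries, EIF2B1 without any one of 7, EIF2B5 without any one of 5, and EIF5A without the second untreated HBS1L library (-0.26). EIF4G2, at -0.17, passed without any one of 4 libraries.

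The responses of the PELO and HBS1L lines were set against each other directly, as the dox change of the PELO line minus that of the HBS1L line. At 48 h 27 members were higher in the PELO line and 4 lower, where 21.9% of all genes were higher and 21.3% lower (43.2% together). At 96 h 25 were higher and 11 lower, where 29.1% of all genes were higher and 26.4% lower (55.5% together). Leaving out each library in turn gave 22 to 29 higher and 4 to 5 lower at 48 h, and 22 to 26 higher and 11 to 12 lower at 96 h. All 4 genes of eIF1 and eIF1A were higher in the PELO line at both times, EIF1 by 0.90 ± 0.06 and 0.55 ± 0.06. EIF5 differed by 1.12 ± 0.06 and 1.03 ± 0.06, EIF6 by 0.89 ± 0.08 and 1.05 ± 0.08, and EIF3J by 0.79 ± 0.08 and 0.87 ± 0.08. EIF2S3 was lower in the PELO line (-0.18 and -0.46). EIF4EBP1 was higher in the PELO line at 48 h (0.74 ± 0.07, adjusted p = 1.06e-10) and lower at 96 h (-0.24 ± 0.07, adjusted p = 0.00540).

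Dox, which also induces Cas9, came with changes in the control line. At 48 h 8 of the 48 rose and 12 fell in control cells, where 19.0% of all genes rose and 16.0% fell (35.0% together). The largest fall was that of EIF4EBP1, and EIF1, EIF2S2 (-0.48), EIF3J (-0.39) and EIF4G2 (-0.29) fell as well. Among the rises were EIF5, EIF4E (0.36), EIF4A2 (0.34), EIF4EBP2 (0.33) and EIF5A (0.31). At 96 h only EIF5 passed in control cells, where 3.89% of all genes rose and 3.63% fell (7.52% together). Before adjustment 16 members had a p under 0.05, a threshold at which the share of all genes was not computed. The count of 1 that passed became 4 without the third untreated control library, 2 without the first control library with dox and 6 without the second. Within the HBS1L line 2 members rose and 16 fell with dox at 48 h, where 10.1% of all genes rose and 11.4% fell. At 96 h 16 rose and 7 fell in that line, where 11.0% rose and 8.90% fell (19.9% together). The 16 falls at 48 h became 10 without the second untreated HBS1L library. Within the PELO line 23 rose and 7 fell at 48 h, where 24.2% of all genes rose and 23.7% fell, and 30 rose and 7 fell at 96 h, where 34.4% rose and 32.5% fell (66.8% together). With each library left out in turn, 26 to 29 rose and 8 to 10 fell in the PELO line at 96 h. In the HBS1L line 12 to 15 rose and 5 to 8 fell at 96 h, and 10 to 14 fell at 48 h.

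Without dox the lines already differed in some members. Untreated PELO cells had 3 members higher and 2 lower than untreated control cells at 48 h, where 6.37% of all genes were higher and 4.72% lower. The 3 became 1 without the second untreated control library, and the 2 became 1 without any one untreated control library or the first or second untreated PELO library. At 96 h 12 were higher and 12 lower, where 10.3% of all genes were higher and 11.5% lower, led by EIF4A2 (0.45) and EIF4G1 (-0.32). Untreated HBS1L cells had 23 members higher and 8 lower at 48 h, where 18.7% of all genes were higher and 19.2% lower (37.9% together), with EIF4A2 (0.43) and EIF3K (0.42) the highest. Those 8 became 4 without the second untreated control library and 5 without the third, or without the third untreated HBS1L library. At 96 h no member passed by edgeR between untreated HBS1L and control cells, where 0.0867% of all genes were higher and 0.0482% lower. Before adjustment 8 members had a p under 0.05, a threshold at which the share of all genes was not computed. DESeq2 and limma on the authors' log2 values also passed none there.

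The wider pathway was followed in 26 genes that assist or restrain initiation, of which PAIP2B was not tested. In the PELO line 3 of the 25 rose and 4 fell at 48 h, with a median log2 change of -0.02, and 9 rose and 7 fell at 96 h, with a median of 0.02. Over all genes 22.9% rose and 24.9% fell at 48 h, with a median of -0.04, and 28.7% rose and 26.0% fell at 96 h, with a median of 0.02. DDX3X, a helicase for structured messengers, had -0.08 at 48 h and rose by 1.06 ± 0.07 at 96 h, with 612, 673 and 708 CPM in PELO cells with dox and 331, 325 and 293 CPM without. BZW1, a mimic of eIF5 that competes for eIF2, rose by 0.51 ± 0.07 and 0.79 ± 0.07, with 789, 736 and 756 CPM in PELO cells with dox and 354, 335 and 349.8 CPM without at 96 h. The libraries of both genes with dox lay above the untreated ones at 96 h. PAIP1, which links poly(A)-binding protein to the helicase, rose by 0.17 and 0.43. MKNK2, a kinase of eIF4E, had 0.35 beyond the control line at 48 h, where control cells fell with dox (-0.51). At 96 h MKNK2 fell beyond the control line, at -0.35. MTIF3, an initiation factor of mitochondria, fell at both times (-0.30 and -0.42), and PDCD4, an inhibitor of the helicase, fell at 96 h (-0.41). In the HBS1L line MKNK2 alone passed at 48 h (0.43 ± 0.05), with a change within that line of -0.08 that did not pass. At 96 h 3 rose and 3 fell in the HBS1L line, where 5.41% of all genes rose and 5.32% fell. Among these were MKNK2 (0.45), ABCE1 (-0.28), which splits ribosomes after termination, and DDX3X (-0.30).

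Several members share sequence with other genes, and the deposited counts hold fractions, as division of shared reads would leave. EIF3CL and EIF3C kept a count ratio of 0.909 to 0.923 in every library, so their values are not separate measurements. EIF2S3B with EIF2S3 and EIF5AL1 with EIF5A are pairs of the same kind. Of the pseudogenes left out, EIF2S2P4 averaged 4162 counts per library, 23.7% of EIF2S2, EIF1AXP1 2993 counts, 20.2% of EIF1AX, and EIF4EP2 1137 counts, 31.7% of EIF4E. Exons of other genes covered 51.8% of the exonic length of EIF3L, 48.6% of EIF4A1, 23.6% of EIF2B2, 17.9% of EIF4A2, 17.4% of EIF6 and 15.6% of EIF2B1. Whether strand was used in counting is not given in the sources used here, so reads of overlapping genes on either strand cannot be told apart from those of these members.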

How the data were processed

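Polyadenylated RNA of 36 libraries was analysed, grouped by the labels' guide, dox and time. The authors deposited expected counts per Ensembl gene with fractions (45.6% of the values above 0 were not whole) and a table of log2 CPM for 17138 genes. The submitters' processing notes name limma, edgeR, Subread, featureCounts, DRAGEN and the build GRCh38.p13. What each did, with which version or annotation, is not given in the sources used here. Their deposited log2 table lists 48 of the 50 members and served only as an alternative.

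Rounded to integers, the counts entered edgeR 4.0.16 under R 4.3.3. There filterByExpr (minimum count 10, minimum total 15) left 20767 genes, which held at least 99.95% of each library's counts. TMM scaling was used, with 1 mean per group over all 36 libraries, glmQLFit with robust dispersion and glmQLFTest, and p-values were adjusted by the Benjamini-Hochberg method over all genes tested at 0.05. CPM are computed on TMM-scaled library sizes, and the SE of a log2 change is its size divided by the square root of F. The procedure was tested on simulated counts. Counting error is largest for EIF4E3.

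Members and lists were chosen with earlier results of these data known. Named with values were EIF5, EIF4G2, EIF4EBP1 and EIF4A2, and in each factor group the 2 members of smallest adjusted p for the PELO line at 48 h, the 2 at 96 h, and the 1 with the smallest in the HBS1L line at each time if past 0.05. Of the pathway list, the 3 with the smallest adjusted p per comparison were named, and other members and genes by choice. Symbols, coordinates and exon lengths come from GENCODE 29 on GRCh38; at least 99.6% of counts lay on genes with a length. Promoter windows come from RefSeq (GRCh38.p14). Replicates differed by more than sampling noise (chi-square per gene 1.91 to 22.0), so each counted as 1 sample. Deviations of libraries with the same number, dox and no dox, correlated at -0.19 to 0.10, so the numbers were not taken to pair libraries. Alternatives were DESeq2 1.42.0, its size factors in edgeR, no filter, a fit of the compared groups only, a replicate block, limma 3.58.1 on the authors' log2 values, dox libraries alone, each library left out in turn, and, chosen after seeing the data, pseudogene counts added to the parent gene.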

Additional observations from a re-analysis of the deposited data

Results flagged for a closer look

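The PELO and HBS1L lines answered dox differently, by a direct test of the difference between their responses (PELO minus HBS1L, edgeR's quasi-likelihood test). At 48 h 31 of the 48 initiation factors differed, where 43.2% of all genes did. Among the 4 marker genes the log2 difference at 48 h was 1.12 for EIF5, 0.60 for EIF4G2, 0.74 for EIF4EBP1 and 0.18 for EIF4A2. At 96 h 36 members differed, where 55.5% of all genes did, with 1.03 for EIF5, 1.09 for EIF4G2, -0.24 for EIF4EBP1 and -0.30 for EIF4A2. The 48 h difference of EIF4A2 was lost without any one of 4 of the 12 libraries: replicate 1 of untreated PELO cells, replicates 2 and 3 of PELO cells with dox, and replicate 1 of untreated HBS1L cells.

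The response of the PELO line beyond the control line differed between 96 h and 48 h for 17 members, where 20.5% of all genes differed, and EIF4EBP1 differed by -0.92 on the log2 scale. In the HBS1L line 2 members differed between the times, where 3.07% of all genes did: EIF4G2 by -0.28 and EIF4A2 by 0.41.

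The formal check of single libraries far from their group needs 4 or more, so none was made in these groups of 3.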

How the results depend on the processing

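Of 620 recomputed counts of called members, 526 lay within 1.5 times the reported count, and of 3992 recomputed values of single genes 3743 kept their direction and side of the threshold, 206 lost their call, 35 gained one and 8 turned round. The 8 came from comparing the dox libraries alone, guide line against control: EIF4A2 (0.33) at 48 h and EIF2B1 (-0.23) and EIF4A2 (0.25) at 96 h in the PELO line, and EIF2B2 (0.17), EIF2B4 (0.17), EIF2S2 (0.23), EIF4A2 (0.12) and EIF6 (0.18) at 48 h in the HBS1L line. The 8 are not every such member. In the same setting EIF3K (0.21), EIF3G (0.17) and EIF3I (0.14) at 48 h in the HBS1L line turned round as well. So did EIF4E (0.12) at 48 h in the PELO line. Of all of these only EIF4A2 had passed beyond the control line, at 96 h in the PELO line and at 48 h in the HBS1L line. The values beyond the control line of EIF2B2 (-0.03), EIF2B4 (-0.01), EIF2S2 (-0.02) and EIF6 (-0.06) at 48 h in the HBS1L line were smaller than their SE. Comparing the dox libraries alone leaves out how the untreated lines differ. It also gave 13 members higher and 3 lower in the HBS1L line at 48 h, where 9.47% of all genes were higher and 13.6% lower, and 11 higher and 15 lower at 96 h, where 14.9% were higher and 14.8% lower. For the settings that follow the cause was not tested.

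In the HBS1L line beyond control at 48 h, 1 member fell with DESeq2 size factors, with the replicate block and in limma on the authors' log2 values, and 4 fell when only the compared groups were fitted. With no filter on low counts 3 rose in the HBS1L line at 96 h. In control cells at 96 h 4 rose with no filter, 3 in limma and 3 in DESeq2. Between the times, the PELO line had 4 higher with DESeq2 size factors or its own groups only, and 4 lower with no filter. The HBS1L line had 0 lower with no filter or the replicate block, 3 higher and 2 lower with its own groups only, and 2 higher and 2 lower in DESeq2. Without dox, the PELO line at 48 h had 1 lower with DESeq2 size factors, no filter, the replicate block or the compared groups only, and the HBS1L line had 3 lower at 48 h and 1 lower at 96 h with no filter.

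Libraries with the same replicate number did not deviate together (correlations of -0.19 to 0.10), so the replicate block is given only here: with it 19 members rose and 9 fell in the PELO line at 48 h, against 19 and 8.

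With each library left out in turn, beyond the control line 18 to 19 members rose and 6 to 9 fell in the PELO line at 48 h, 20 to 25 and 7 to 11 at 96 h, 1 and 1 to 2 in the HBS1L line at 48 h, and 2 to 6 and 2 to 12 at 96 h. Falls with dox in the HBS1L line at 48 h numbered 10 to 14, and rises in control cells at 96 h 1 to 6. Between the times 4 to 7 were higher in the PELO line and 0 to 2 lower in the HBS1L line. Without dox 1 to 3 were higher and 1 to 2 lower in the PELO line at 48 h, and 4 to 8 lower in the HBS1L line. Adding pseudogene counts to their parents, chosen after seeing the data, moved no count of members by more than 1.5 times. Counting depth limits EIF4E3 most.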
